A study of Mus musculus with 98 samples.

Results

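Vascular smooth muscle (VSM) was studied here as the cells that carry the authors' label VSM among the non-epithelial thymic stroma (NETS) of the mouse, the cells of the thymus that are neither haematopoietic nor epithelial. The label was held by 2464 of 36208 cells (6.81%), which the authors had divided among 19 labels. All of these cells came from wild-type C57BL/6 mice and were sorted as live Ter119-CD45-EpCAM- cells for droplet-based single-cell RNA sequencing. The embryonic ages E12.5 and E13.5 had a single library each, while E16.5, birth (P0) and 4 weeks (W4) had 2. A further set of 6 libraries came from newborn Ter119-CD45- stroma fixed with RNAprotect, 3 labelled Tbx1+/- Crkl+/- (1 lacZ allele of Tbx1 and 1 null allele of Crkl) and 3 labelled wild-type (WT), and held 866 VSM cells. The null Crkl allele had been made from a floxed one by Cre recombination in the epiblast with Meox2Cre, and the Cre had been removed by backcrossing. Bulk RNA-seq of sorted Ly51+gp38- cells had 6 WT libraries at P0 and 6 at 4 weeks. The study defined these cells within Ter119-CD45-EpCAM- stroma and placed both Pc and VSM among them. Adult suspensions were depleted of CD45+ cells with microbeads before the sort, so that this step and age cannot be told apart.

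VSM cells form the contractile wall of arteries, arterioles and veins. They shorten when calcium activates the kinase of the myosin light chain, which lets smooth muscle myosin pull on filaments of smooth muscle α-actin, and they relax through cyclic nucleotides and through channels that let potassium out of the cell. Pericytes (Pc) are the related mural cells of capillaries and venules, which share the receptor PDGFRβ and the regulator RGS5 with VSM but hold less of the contractile apparatus, and both surround the vessels through which progenitors enter and T cells leave the thymus. The cells labelled Pc (4121 cells) were therefore the main comparison.

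Libraries held 59 VSM cells at E12.5, 90 at E13.5, 303 and 314 at E16.5, 449 and 618 at P0, and 304 and 327 at W4, with 1203101 to 5934921 UMIs (unique molecular identifiers, each a counted transcript) summed over them. Levels are given as CPM, the UMIs of a gene per 1000000 UMIs of the summed VSM cells of 1 library, and each library counts as 1 sample. The median VSM cell held fewer UMIs with age, 18960 at E12.5 and 6336 and 6382 at W4. The libraries of E16.5 were closer to each other than those of P0 or W4, since chi-square over its degrees of freedom for the VSM sums was 1.51 at E16.5, 18.1 at P0 and 4.14 at W4. Per the study, thymi of several embryos were pooled at E12.5 and E13.5, and cells of a pair of thymi were sorted at each later age. Whether each of these thymi gave a library of its own is not stated, so that p-values measure the spread between libraries, which may in part be technical. Of the cell barcodes of the age series, 0.43% occurred in more than 1 library, and 19 of these belonged to a VSM cell.

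Markers of other cells were low in VSM but not constant. Summed endothelial markers were 38.2 to 499 CPM over the 8 libraries, summed haematopoietic markers 2.49 to 242 CPM, and summed fibroblast markers 88.9 to 521.8 CPM up to P0 but 411 and 1994 CPM at W4. Haemoglobin transcripts summed to 1842 and 92.8 CPM at P0 and to 3644 and 8676 CPM at W4. In Pc of the same libraries they summed to 171.2 and 2251 CPM at P0 and to 596.2 and 3902 CPM at W4. The order of the libraries was thus reversed between the labels at P0 and the same at W4. The source of the haemoglobin transcripts was not tested. Of 10 striated muscle genes, Myh6 was at 0 in every VSM cell and Actc1, a sarcomeric actin, was counted most. The part of these transcripts in the results below was not tested.

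The VSM label itself joined 2 of the authors' clusters, numbered 7 (2242 cells) and 21 (222 cells), and neither cluster held a cell of another label. Cluster 21 was spread unevenly over the libraries. It held 18 of the VSM cells at E12.5, 51 at E13.5, 1 and 2 at E16.5, 123 and 23 at P0, and 0 and 4 at W4, which is 27.4% of VSM in the first P0 library but 3.72% in the second. Counts over gene lists are therefore given for all VSM and for cluster 7 alone, an alternative chosen after seeing the data. Tests of single genes in cluster 7 are given where a call was lost or the sign turned, and for some genes where a call was gained or kept. A call gained in cluster 7 alone rests on that later choice of cells.

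The label was checked against the contractile transcripts of the cells. Acta2 (smooth muscle α-actin), Myh11 (smooth muscle myosin heavy chain) and Tpm1 (tropomyosin, which lies along the actin filament) were all detected in 49.2% of VSM cells at E12.5, 37.8% at E13.5, 78.2% and 78.98% at E16.5, 92.4% and 85.8% at P0, and 91.1% and 94.5% at W4. In Pc the same share lay between 13.6% and 35.3% in all 8 libraries. A list of 22 contractile genes took a median of 1.74% of the UMIs of a VSM cell at E12.5, 0.939% at E13.5, 2.23% and 2.16% at E16.5, 3.36% and 3.11% at P0, and 3.88% and 4.32% at W4. The share of VSM cells above the median Pc cell of their own library on this measure was 57.6% at E12.5 and 98.7% and 99.4% at W4, so that the labels overlapped at the earliest age and hardly at the latest. Since the authors drew the labels from the same counts, these values describe the label and are no test of it.

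Free RNA in droplets can give UMIs in cells that do not express a gene, so detection was set beside that in endothelium. At W4 a Myh11 UMI was found in 97.0% of VSM cells, 40.6% of Pc and 3.46% of capillary endothelial cells (EnC), whose median cells held 6365, 5029.5 and 5370 UMIs. After each cell was thinned to 2000 UMIs the shares were 89.5%, 22.0% and 1.41%. For Acta2 the shares after thinning were 92.2%, 28.9% and 8.03%. The Pc share thus lay between those of VSM and EnC for both genes. The part of free RNA, doublets or cells placed under another label in these shares was not tested.

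Counts of VSM cells relative to all NETS cells were compared between ages. VSM made up 2.95% of NETS cells at E12.5, 1.60% at E13.5, 5.25% and 4.77% at E16.5, 9.57% and 10.8% at P0, and 11.9% and 10.0% at W4. The libraries of P0 and W4 overlapped, and all 4 lay above those of E16.5. From E16.5 to P0 the share rose by 1.03 ± 0.20 on the log2 scale (SE, edgeR, adjusted p = 0.00443 over the 19 labels), whereas W4 against P0 gave 0.10 ± 0.19 (adjusted p = 0.788). With the cells of cluster 7 alone these were 0.80 ± 0.24 (adjusted p = 0.0358) and 0.32 ± 0.24 (adjusted p = 0.368). With Pc and VSM together as the denominator the increase to P0 was 0.88 (adjusted p = 0.0520), and VSM were 25.7% and 24.6% of these mural cells at E16.5, 50.7% and 41.8% at P0, and 40.9% and 49.3% at W4. With either E16.5 library left out, the increase was 1.10 (adjusted p = 0.124) or 0.96 (adjusted p = 0.208).

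**Figure D1:**
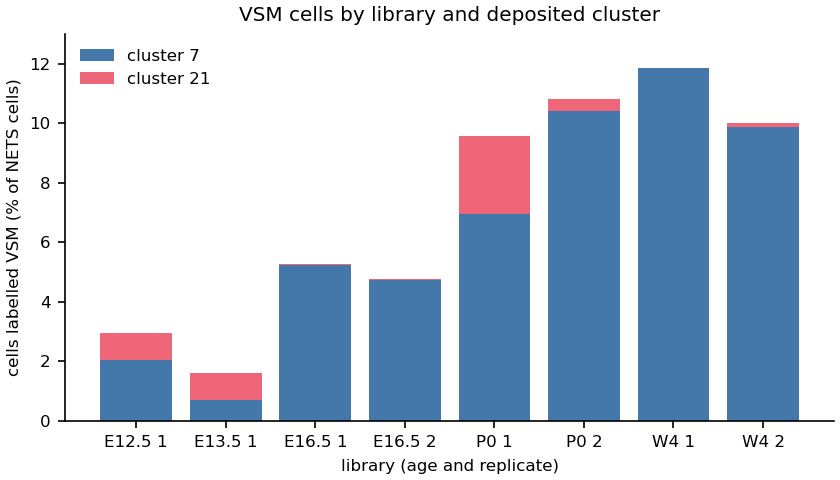
Cells labelled VSM as a percent of NETS cells in each of the 8 libraries from E12.5 to W4, as bars stacked from cluster 7 (blue) and cluster 21 (red). The P0 and W4 libraries lie between 9.57% and 11.9% of NETS cells, above the E16.5 libraries at 5.25% and 4.77%.

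Which genes set VSM apart from Pc was described by the ratio of their levels within the P0 and W4 libraries, as a description without a test. Among genes of at least 50 CPM on the higher side in all 4 libraries, ordered by the lowest of their 4 ratios, the first on the VSM side was Tesc, a calcium-binding protein, at 40.1-fold and 42.9-fold at P0 and 140-fold and 98.4-fold at W4. It was followed by Pcp4l1, a small protein related to the calmodulin regulator PCP4, at 34.7-fold, 53.7-fold, 32.3-fold and 34.7-fold, and by Nrgn, a calmodulin-binding protein, at 30.6-fold, 29.1-fold, 51.0-fold and 23.6-fold. Kcna5, a voltage-gated potassium channel, was 22.5-fold to 36.3-fold higher in VSM in these libraries. The other genes of this rule were Sorbs2, Rgs7bp, Car4, Ackr3, Fam81a, Olfml2a, Slc38a11 and Nrip2, among them an actin-associated adaptor (Sorbs2), a carbonic anhydrase (Car4) and an atypical receptor for CXCL12 (Ackr3).

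On the Pc side the order was led by Gpx3, Chst1, Kcnj8, Colec11, Abcc9, Emcn, Hic1 and Adra2a. Kcnj8 and Abcc9 encode the pore and the regulatory subunit of an ATP-sensitive potassium channel of mural cells. Kcnj8 in VSM was 69.8 CPM at E12.5, 166.7 at E13.5, 319 and 295 at E16.5, 90.8 and 143.1 at P0, and 61.4 and 51.5 at W4. In Pc it was 146.1 CPM at E12.5, 266 at E13.5, 841 and 825 at E16.5, 1053 and 1229.9 at P0, and 1873 and 1772 at W4. The labels lay apart in every library, and the log2 ratio of VSM to Pc was -3.54 and -3.10 at P0 and -4.93 and -5.11 at W4. A ratio with fewer than 3 UMIs on the lower side was computed against 3 UMIs.

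**Figure D2:**
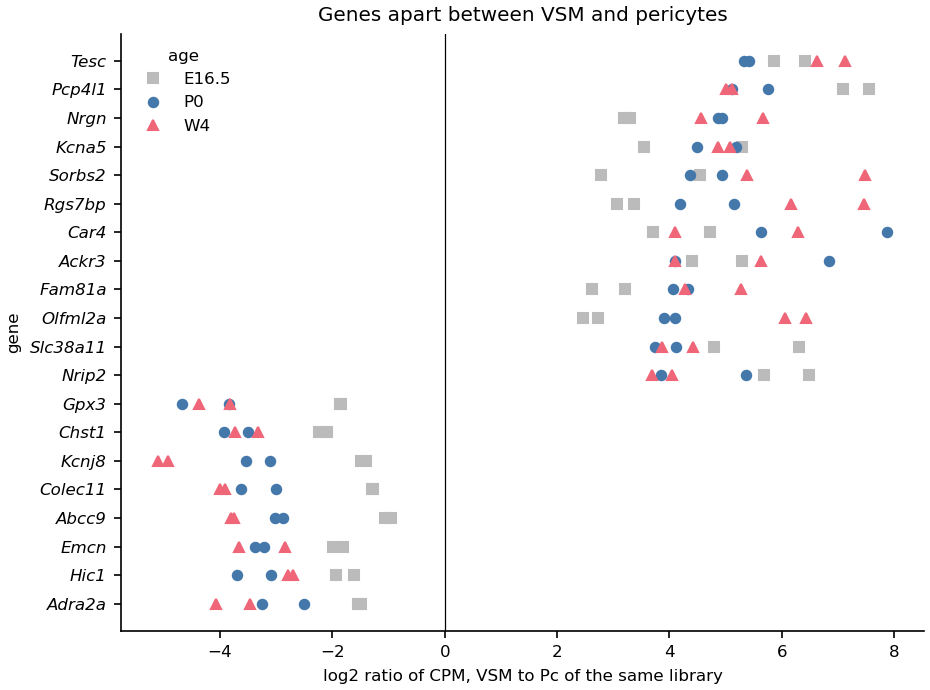
Ratio of VSM to Pc on a log2 axis for the 12 genes highest on the VSM side and the 8 highest on the Pc side, with 1 point per library of E16.5 (grey squares), P0 (blue) and W4 (red triangles). Kcnj8 lies at -3.54 and -3.10 at P0 and at -4.93 and -5.11 at W4.

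The contractile apparatus was the first group examined over age. The list of 22 genes held parts of the filaments, the motor and its kinase, and the anchors (Acta2, Actg2, Myh11, Myl6, Myl9, Mylk, Tagln, Cnn1, Tpm1, Tpm2, Lmod1, Smtn, Cald1, Des, Synpo2, Flna and Vcl) and also Pln, Mustn1, Sncg, Nrip2 and Pcp4l1, which are none of these. The 22 genes together made up 22108 CPM at E12.5, 12530 at E13.5, 32057 and 29305 at E16.5, 41528 and 39034 at P0, and 44436 and 47584 at W4 in VSM, and the W4 libraries lay above the P0 libraries, which lay above those of E16.5. The order held in cluster 7 alone, at 32069 and 29142 CPM at E16.5, 39851 and 38145 CPM at P0, and 44436 and 47272 CPM at W4. In Pc the sum was 10455 and 10152 CPM at E16.5, 16817 and 11777 CPM at P0, and 12613 and 13228 CPM at W4. VSM had the highest level of all 19 labels for 20 of the 22 genes at W4, for 18 at P0 and for 19 at E16.5. As the label was drawn from these counts and the list with earlier results known, these ranks are a description and no test.

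Of the label's own markers, neither Acta2, Myh11 nor Tpm1 passed between P0 and W4. Acta2 was 5707 CPM at E12.5, 2760.0 at E13.5, 7108 and 6116 at E16.5, 10919 and 8623 at P0, and 8271 and 9858 at W4 in VSM. Pc held 2864 CPM at E12.5, 1219 at E13.5, 1472 and 1293 at E16.5, 3202 and 1470.3 at P0, and 1064 and 1264 at W4. The W4 library values overlapped those of P0, and the change between these ages was -0.17 ± 0.15 (adjusted p = 0.464) on the log2 scale (SE, edgeR quasi-likelihood test, Benjamini-Hochberg adjustment over all genes), and 0.01 in cluster 7. P0 against E16.5 gave 0.57 ± 0.15 (adjusted p = 0.0822), which passed in cluster 7 alone (0.38, adjusted p = 0.0267).

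Myh11 was 167.1 CPM at E12.5, 129 at E13.5, 1585 and 1352 at E16.5, 1700.3 and 2266 at P0, and 2373 and 2272 at W4. Tests gave 0.17 ± 0.13 (adjusted p = 0.394) for W4 against P0 and 0.44 ± 0.13 (adjusted p = 0.0833) for P0 against E16.5 (cluster 7 0.57, adjusted p = 9.52e-05). Tpm1 was 3362 and 3343 CPM at E16.5, 3551 and 3512 at P0, and 3635 and 3735 at W4, with -0.00 ± 0.07 (adjusted p = 0.999) for W4 against P0.

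Several genes of the filament and its anchors rose after birth. Lmod1 (leiomodin, which nucleates actin filaments) was 126 CPM at E12.5, 81.9 at E13.5, 367 and 332 at E16.5, 501 and 574 at P0, and 829.9 and 847 at W4. Its libraries did not overlap between ages from E16.5 on, and the change was 0.63 ± 0.10 (adjusted p = 0.00376) to P0 and 0.58 ± 0.10 (adjusted p = 0.00248) to W4. Des (desmin, the muscle intermediate filament) was 8.31 CPM at E12.5, 15.4 at E13.5, 473 and 518 at E16.5, 802 and 826 at P0, and 1659 and 1507 at W4 and rose by 0.72 ± 0.09 (adjusted p = 0.00113) and then by 0.90 ± 0.09 (adjusted p = 0.000142), again without overlap between ages.

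Synpo2 (synaptopodin-2, an actin-bundling protein) rose by 0.84 ± 0.15 (adjusted p = 0.0033) to W4, and Cald1 (caldesmon, which restrains myosin on actin) by 0.45 ± 0.08 (adjusted p = 0.00341). Synpo2 was 87.6 and 65.5 CPM at P0 and 150.2 and 136.6 at W4 in VSM but 51.3 and 49.8 CPM at P0 and 325 and 304 at W4 in Pc, and was thus among the few contractile genes higher in Pc at W4. Tagln (transgelin), at 4433 and 3814 CPM at E16.5, 6220.5 and 5757 at P0, and 6969.8 and 7808 at W4, rose to P0 by 0.55 ± 0.09 (adjusted p = 0.00547), and to W4 in cluster 7 alone (0.34, adjusted p = 0.00208, against 0.0814 in all VSM). Myl6 (the essential light chain of myosin) and Tpm2 (β-tropomyosin) gave 0.23 ± 0.09 (adjusted p = 0.107) and -0.11 ± 0.12 (adjusted p = 0.546) for W4 against P0, and Myl6 passed in cluster 7 (0.30, adjusted p = 0.00338).

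The largest increases of the group belonged to small regulators. Pln (phospholamban, the inhibitor of the calcium pump SERCA) was 0 CPM at E12.5, 0.731 at E13.5, 0.529 and 0.266 at E16.5, 7.91 and 6.57 at P0, and 159.6 and 152 at W4 in VSM and at most 0.555 CPM in Pc. It rose by 4.06 ± 0.38 (adjusted p = 0.000215) to P0 and by 4.36 ± 0.17 (adjusted p = 6.02e-07) to W4, and its libraries were apart at each step. Sncg (γ-synuclein) was 30.8 CPM at E12.5, 102 at E13.5, 4.76 and 0.532 at E16.5, 22.0 and 8.09 at P0, and 611 and 652 at W4, and W4 stood above P0 by 5.35 ± 0.66 (adjusted p = 0.0155).

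Pcp4l1 was 3.33 CPM at E12.5, 2.19 at E13.5, 57.4 and 50.2 at E16.5, 192.3 and 229 at P0, and 601 and 547 at W4 and rose at both steps, by 1.98 ± 0.12 (adjusted p = 2.9e-05) and 1.38 ± 0.12 (adjusted p = 4.96e-05). Mustn1, a small nuclear protein of muscle and skeleton, rose to P0 by 1.30 ± 0.19 (adjusted p = 0.0103), with 0.49 ± 0.19 (adjusted p = 0.109) from P0 to W4 (cluster 7 0.26, adjusted p = 0.0361). Actg2 (the γ-actin of visceral smooth muscle) went the other way, from 635 and 338 CPM at P0 to 8.50 and 26.3 CPM at W4 (-4.83 ± 0.72, adjusted p = 0.0251). Acta2 and Actg2 are close in sequence, so that the split of their UMIs is uncertain. A Cnn1 (calponin) UMI was found in 72.9% of VSM cells at E12.5, 56.7% at E13.5, 17.3% at E16.5, 28.3% at P0 and 8.56% at W4. With cells thinned as above, the last 3 shares were 8.75%, 16.7% and 3.99%. Cnn1 was not called from P0 to W4 in all VSM. Its level at P0 was far higher in cluster 21, and the part of that cluster in these shares was not tested.

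Of the list as a whole, 7 of the 22 genes rose and 1 fell from P0 to W4, against 10.9% and 12.6% of the 12575 genes tested, with a median log2 change of 0.23 beside -0.02 over all genes. The rises were those of Lmod1, Des, Synpo2 and Cald1 and, outside the filament, of Pln, Sncg and Pcp4l1, the last 3 being the largest. The list was drawn up with earlier results of these data known, so that counts over it describe it and are no independent support. From E16.5 to P0, 9 rose and 0 fell, against 4.33% and 5.06%, with a median of 0.50 beside 0.01. Pln, Pcp4l1 and Mustn1, outside the filament, were among these 9. In cluster 7 the counts were 12 and 2 to W4 (background 15.2% and 16.7%) and 15 and 0 to P0 (9.2% and 8.72%). With E16.5 replicate 1 left out, the calls to P0 of Lmod1, Des, Synpo2 and Mustn1 were lost, and with replicate 2 left out those of Lmod1, Synpo2, Mustn1 and Tagln. To W4, Sncg was lost with either W4 library left out, and Actg2 with either library of E16.5, P0 replicate 1 or W4 replicate 1.

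**Figure D3:**
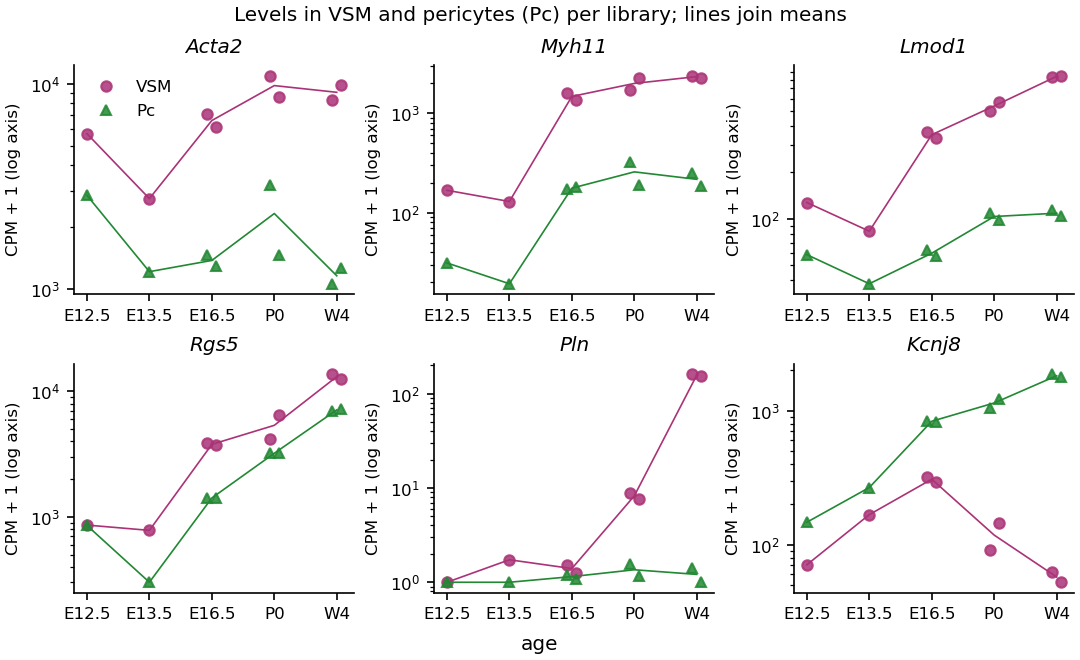
Levels of Acta2, Myh11, Lmod1, Rgs5, Pln and Kcnj8 in VSM (circles) and Pc (triangles) by age, as CPM + 1 on a log axis, with 1 point per library and lines through the means. Lmod1 and Pln climb in VSM to 829.9 and 847 CPM and to 159.6 and 152 CPM at W4, while Kcnj8 in VSM is 90.8 and 143.1 CPM at P0 and 61.4 and 51.5 CPM at W4.

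The core promoters of the contractile genes were read for the CArG box, the element bound by serum response factor, since this factor and its partner myocardin drive smooth muscle genes. The motif searched was CCNNNNNNGG with A or T at all 6 middle positions, and a looser form allowed 1 of them to be another base. The motif is its own reverse complement, so that one search covers both strands. RefSeq windows (GRCm38.p6) of 250 bases before a start were matched for 18 of the 22 genes in 20 windows, of which 3 (15%) held the exact motif and 5 (25%) the looser one, beside 1.47% and 8.59% of the 32851 windows of all genes. The 4 windows below are those of Acta2, the defining marker of the label, and of the genes with an exact match, printed in the direction of transcription and ending at the base before the start, with the motif or its looser form in capitals.
Acta2, chr19:34255374-34255623, - strand: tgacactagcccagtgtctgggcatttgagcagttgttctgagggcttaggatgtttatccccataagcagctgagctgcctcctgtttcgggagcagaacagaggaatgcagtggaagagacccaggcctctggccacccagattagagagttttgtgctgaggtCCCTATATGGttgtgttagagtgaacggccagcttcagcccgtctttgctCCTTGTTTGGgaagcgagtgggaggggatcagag
Myl9, chr2:156775214-156775463, + strand: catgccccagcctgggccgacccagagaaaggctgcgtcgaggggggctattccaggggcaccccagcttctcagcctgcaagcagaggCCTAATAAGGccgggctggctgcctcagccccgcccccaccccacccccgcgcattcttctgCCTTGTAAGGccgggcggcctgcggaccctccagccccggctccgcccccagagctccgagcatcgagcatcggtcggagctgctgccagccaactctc
Myl6, chr10:128493010-128493259, - strand: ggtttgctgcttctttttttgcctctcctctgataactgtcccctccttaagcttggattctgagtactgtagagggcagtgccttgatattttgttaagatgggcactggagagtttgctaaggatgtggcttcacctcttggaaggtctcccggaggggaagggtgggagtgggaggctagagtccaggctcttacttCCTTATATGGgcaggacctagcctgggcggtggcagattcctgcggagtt
Vcl, chr14:20929148-20929397, + strand: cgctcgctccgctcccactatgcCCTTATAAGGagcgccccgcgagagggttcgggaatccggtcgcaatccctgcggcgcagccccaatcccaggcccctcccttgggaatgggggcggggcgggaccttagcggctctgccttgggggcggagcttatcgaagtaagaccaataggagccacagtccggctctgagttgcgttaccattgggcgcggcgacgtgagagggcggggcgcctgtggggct
The marked motifs of Acta2, both of the looser form, began 84 and 34 bases before the start. The nearer of those of Myl9 (the regulatory light chain of myosin) was also of the looser form and began 99 bases before it. The exact motif of Myl9 lay farther from the start. The exact motif of Myl6 began 50 bases and that of Vcl (vinculin, which anchors actin to the membrane) 227 bases before the start. A match is a property of these letters and was not tested for binding. Of the 5 contractile genes that rose at both steps, Lmod1, Des, Synpo2 and Pln had windows with neither form, and that of Pcp4l1 held the looser form 116 bases before the start.

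Whether VSM and Pc changed alike was tested with the interaction of label and age, in a fit that holds the library as a block. The labels were drawn from these counts and overlapped less at W4 than at P0. Pc cells above the median VSM cell of their library in contractile share were 9.40% and 6.28% at P0 and 1.36% and 0.595% at W4. The test cannot tell a change within cells from a change in which cells carry each label, and the part of the latter was not tested. From P0 to W4 the VSM-Pc difference changed in 651 of 13191 genes (4.94%), 439 (3.33%) toward VSM and 212 (1.61%) toward Pc. Of the contractile genes 6 shifted toward VSM and 1 toward Pc, with a median of 0.55. Tpm1 shifted by 0.72 ± 0.10 (adjusted p = 0.000969), with 1597 and 1219 CPM in Pc at P0 and 908 and 1025 CPM at W4.

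Lmod1 shifted by 0.69 ± 0.12 (adjusted p = 0.00189), Cald1 by 0.53 ± 0.08 (adjusted p = 0.000969), Tpm2 by 0.62 ± 0.10 (adjusted p = 0.00108), Flna (filamin, which crosslinks actin) by 0.59 ± 0.11 (adjusted p = 0.00298) and Myl6 by 0.39 ± 0.07 (adjusted p = 0.00311). Synpo2 shifted toward Pc (-1.58 ± 0.14, adjusted p = 6.94e-06). For Acta2 the shift was 0.93 ± 0.30 (adjusted p = 0.294). For Pln, which was near its detection limit in Pc, it was 4.88 ± 1.39 (adjusted p = 0.0561). In cluster 7 the counts were 10 and 1 of the contractile genes, against 4.76% and 3.26% of the 13013 genes tested (8.02% in all).

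Transcription factors of smooth muscle were compared between the labels in the same way. Myocd (myocardin, the partner of serum response factor) was 17.4 CPM at E12.5, 17.6 at E13.5, 29.6 and 24.99 at E16.5, 29.5 and 36.4 at P0, and 46.3 and 40.9 at W4 in VSM. In Pc it was 2.53 CPM at E12.5, 3.59 at E13.5, 2.03 and 0.835 at E16.5, 6.66 and 4.11 at P0, and 0 and 0.542 at W4, and the difference between the labels grew from P0 to W4 by 4.75 ± 0.91 (adjusted p = 0.00553). With no Myocd UMI in Pc of one W4 library, the size of this shift depends on the fit's prior, and the call was lost without W4 replicate 1. Hand2, a basic helix-loop-helix factor of the cardiovascular mesenchyme, was 42.3 and 38.9 CPM at P0 and 43.9 and 42.5 at W4 in VSM, 23.9 and 35.4 CPM at P0 and 8.87 and 5.97 at W4 in Pc, with a shift toward VSM of 2.22 ± 0.30 (adjusted p = 0.000348).

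Of 30 regulators tested, 6 rose and 4 fell from P0 to W4, beside a background of 10.9% and 12.6%, and 8 and 3 in cluster 7. Rbpms (an RNA-binding protein that sets smooth muscle splicing) rose from 679.7 and 869 CPM to 1301 and 1197 CPM (0.63 ± 0.11, adjusted p = 0.0035). Meox2, a homeobox factor of vascular cells, rose by 0.93 ± 0.13 (adjusted p = 0.00082) and Nr2f2 (COUP-TFII, a factor of veins) by 1.11 ± 0.27 (adjusted p = 0.0416), the latter lost with any single E16.5 or W4 library left out. Foxc2, a forkhead factor of vessel development, fell (-1.01 ± 0.19, adjusted p = 0.0043). Klf2, a factor that responds to flow, was 203 CPM at E12.5, 385 at E13.5, 147 and 139.3 at E16.5, 1004 and 801 at P0, and 535 and 524 at W4. Klf4, its relative, was 82.3 CPM at E12.5, 131.6 at E13.5, 71.9 and 54.5 at E16.5, 257 and 271 at P0, and 126 and 191.3 at W4. Both were highest at P0 and fell to W4 (-0.83 ± 0.12, adjusted p = 0.000908 and -0.79 ± 0.21, adjusted p = 0.0339). The Klf4 call was lost in cluster 7 (adjusted p = 0.146) and without either P0 library or W4 replicate 1.

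Genes of calcium handling, ion channels and vasoactive receptors formed the next group, and of 41 tested 13 rose and 3 fell from P0 to W4 with a median of 0.36, beside 10.9% and 12.6% of all genes. In cluster 7 it was 15 and 7 of 38 with a median of 0.19, beside 15.2% and 16.7%, which are the background of cluster 7 for the lists that follow. Rgs4 (an inhibitor of signals through Gq and Gi) was 64.0 CPM at E12.5, 34.4 at E13.5, 64.8 and 75.8 at E16.5, 125.4 and 136.3 at P0, and 663 and 635 at W4. It rose at both steps, by 0.90 ± 0.11 (adjusted p = 0.00104) and 2.25 ± 0.11 (adjusted p = 2.73e-06), and its W4 libraries stood far above all others. Npy1r (the receptor for the vasoconstrictor neuropeptide Y) was 2.49 CPM at E12.5, 5.85 at E13.5, 63.7 and 58.2 at E16.5, 100.7 and 147 at P0, and 314 and 248 at W4, and rose by 1.03 ± 0.19 (adjusted p = 0.0191) and 1.12 ± 0.19 (adjusted p = 0.00553). In Pc Npy1r was 52.2 and 68.9 CPM at P0 and 312 and 293 at W4, and the difference shifted toward Pc (-1.01 ± 0.12, adjusted p = 7.83e-05).

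Calcium channels and pumps were among those that rose. Cacna1c (the pore of the L-type channel) went from 46.9 and 70.1 CPM to 118.6 and 96.0 CPM (0.81 ± 0.19, adjusted p = 0.0153) and Cacnb2 (its β-subunit) from 23.5 and 37.4 CPM to 59.5 and 53.9 CPM (0.83 ± 0.24, adjusted p = 0.0359). Atp2a2 (the pump SERCA2, which phospholamban inhibits) rose by 0.42 ± 0.10 (adjusted p = 0.0144) and Casq2 (calsequestrin, which buffers stored calcium) by 0.56 ± 0.11 (adjusted p = 0.00593). Ryr2 (the calcium release channel) fell (-1.08 ± 0.31, adjusted p = 0.0319) after a gain of 1.15 ± 0.29 (adjusted p = 0.0387) to P0.

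Pde5a (the phosphodiesterase of cyclic GMP) rose by 0.57 ± 0.13 (adjusted p = 0.014), and Ptgir (the prostacyclin receptor) by 0.58 ± 0.18 (adjusted p = 0.0389), the latter not in cluster 7 (adjusted p = 0.0581). Kcnmb1 (the β-subunit of the BK potassium channel) was 19.8 and 8.93 CPM and 35.0 and 33.2 CPM, and passed in cluster 7 (1.88, adjusted p = 6.85e-06) but not in all VSM (adjusted p = 0.0509). Rgs16, a relative of Rgs4, fell from 682 and 1066 CPM to 100.6 and 108.2 CPM (-3.12 ± 0.24, adjusted p = 0.000467). The olfactory receptors Olfr558 and Olfr78, which occur in vascular smooth muscle, rose by 1.27 ± 0.13 (adjusted p = 0.000129) and 1.85 ± 0.27 (adjusted p = 0.00112), to 334 and 320.5 CPM and 25.98 and 30.4 CPM. Leaving out W4 replicate 1 removed the calls to W4 of Cacna1c, Cacnb2, Atp2a2, Pde5a, Ptgir and Ryr2, and leaving out W4 replicate 2 those of Cacnb2, Ptgir and Ryr2. Any single E16.5 library left out removed those of Atp2a2, Ptgir and Ryr2 to W4 and of Npy1r and Ryr2 to P0, replicate 1 also that of Rgs4 to P0, P0 replicate 1 that of Ptgir, and P0 replicate 2 both of Ryr2.

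Genes that mark pericytes were followed in VSM because the labels share them. Among them are Kcnj8, by which the study identified Pc, and Colec11, Gucy1a1 and Ebf1, its top genes of that label. As these were drawn from the same cells, counts over this list describe it and are no independent support. From E16.5 to P0, 6 of 19 fell in VSM and 1 rose (background 5.06% and 4.33%), and 12 of 19 shifted toward Pc and 0 toward VSM, beside 2.25% and 3.07% of all genes (702 calls of 13191, 5.32%). In cluster 7, 6 fell and 3 rose (background 8.72% and 9.2%). The counts of shifts were the same there, 12 and 0, where 3% of genes shifted toward Pc and 4.86% toward VSM (7.85% in all). Kcnj8 fell in VSM to P0 (-1.39 ± 0.20, adjusted p = 0.00757) and again to W4 (-1.12 ± 0.22, adjusted p = 0.0118), and the difference moved toward Pc at both steps (-1.67 ± 0.12, adjusted p = 9.84e-07 and -1.57 ± 0.13, adjusted p = 8.53e-06). Abcc9 was 166.8 and 178 CPM at E16.5, 57.4 and 71.3 at P0, and 66.1 and 55.5 at W4 in VSM. Pc held 350.4 and 346 CPM at E16.5, 468 and 526 at P0, and 893 and 778 at W4, with shifts of -1.73 ± 0.11 (adjusted p = 6.08e-08) and -0.70 ± 0.11 (adjusted p = 0.00109). The potassium channel's subunits thus parted between the labels in both intervals, with both E16.5 values of each gene in VSM above all later ones.

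From P0 to W4, 7 of the 19 pericyte genes rose in VSM and 2 fell (background 10.9% and 12.6%), and 9 and 3 in cluster 7 (background 15.2% and 16.7%). Over this interval 6 shifted toward VSM and 3 toward Pc (background 3.33% and 1.61%), but 4 and 7 in cluster 7 (background 4.76% and 3.26%). Higd1b, a mitochondrial protein, was 368 and 354 CPM at E16.5, 122.3 and 176 at P0, and 529.5 and 567 at W4. It fell to P0 (-1.27 ± 0.15, adjusted p = 0.00157) and then rose (1.82 ± 0.16, adjusted p = 0.000116). Rgs5 (the mural regulator of G-protein signalling) was 859 CPM at E12.5, 779.6 at E13.5, 3848 and 3717 at E16.5, 4189 and 6542 at P0, and 13723 and 12486 at W4 in VSM. The Pc of the same libraries held 854 CPM at E12.5, 300.2 at E13.5, 1424 and 1405 at E16.5, 3209 and 3214 at P0, and 7039 and 7202 at W4. It rose in VSM to W4 by 1.23 ± 0.22 (adjusted p = 0.0223), a call lost with either W4 library left out and kept in cluster 7 (adjusted p = 3.05e-09).

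Pdgfrb (the receptor by which mural cells are recruited) rose from 184.2 and 242 CPM to 512 and 421 CPM (1.07 ± 0.14, adjusted p = 0.000997), Steap4 (a metalloreductase) by 2.16 ± 0.17 (adjusted p = 7.47e-05) and Cspg4 (the proteoglycan NG2) by 0.53 ± 0.11 (adjusted p = 0.00613). Enpep encodes the Ly51 antigen of the bulk sort, and it shifted toward Pc (-1.82 ± 0.25, adjusted p = 0.000596), at 52.0 and 43.4 CPM in VSM and 136.1 and 154 CPM in Pc at W4. Cox4i2 and Ndufa4l2, respiratory chain subunits of mural cells, fell to P0 (-0.92 ± 0.11, adjusted p = 0.000829 and -0.96 ± 0.14, adjusted p = 0.00616), and Colec11, a collectin, fell to W4 (-1.59 ± 0.35, adjusted p = 0.026). With either E16.5 library left out, the falls of Kcnj8 and Ndufa4l2 to P0 were lost, with either W4 library those of Kcnj8 and Colec11 to W4, and with W4 replicate 1 the rise of Cspg4.

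Signals that shape mural cells were given by role. Of 14 Notch genes, 3 rose and 2 fell from P0 to W4, beside 10.9% and 12.6% of all genes, and 4 and 4 in cluster 7. Notch3, the Notch receptor of VSM, was 88.1 CPM at E12.5, 104 at E13.5, 433 and 435 at E16.5, 362 and 485 at P0, and 816 and 718 at W4 and rose by 0.80 ± 0.13 (adjusted p = 0.00274), and its W4 libraries were above all others. Its target Hey2 rose by 0.999 ± 0.13 (adjusted p = 0.000573), to 110.5 and 91.2 CPM at W4, while Hey1 (-1.01 ± 0.23, adjusted p = 0.0121) and Nrarp, a target that dampens the pathway (-0.57 ± 0.12, adjusted p = 0.00928), fell. Hey1 was lost with either W4 library left out and Nrarp with W4 replicate 2. Hes1, another target, was 457 and 473 CPM at P0 and 434 and 375 at W4, after a rise to P0 of 1.61 ± 0.10 (adjusted p = 2.9e-05). Jag1, the Notch ligand of mural cells, shifted toward Pc from P0 to W4 (-0.55 ± 0.11, adjusted p = 0.00406).

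Of 27 genes of the TGFβ and BMP pathways, 6 rose and 5 fell to W4 (background 10.9% and 12.6%) with a median of -0.34, and in cluster 7 it was 8 and 4 with a median of 0.11. Among ligands Tgfb2 fell (-1.13 ± 0.15, adjusted p = 0.000667), and among receptors Eng (endoglin) rose by 1.30 ± 0.13 (adjusted p = 0.000145) and Acvrl1 (ALK1) by 0.81 ± 0.17 (adjusted p = 0.00738), the latter lost without W4 replicate 1. Ltbp1, which holds latent TGFβ in the matrix, rose by 1.82 ± 0.17 (adjusted p = 0.000213) and 1.19 ± 0.15 (adjusted p = 0.000444), from 18.8 and 13.6 CPM at E16.5 to 123.8 and 146.3 CPM at W4. The targets Id1 and Id3 were 117 and 112.4 CPM at E16.5, 226 and 298 at P0, and 158.2 and 171 at W4 and 518 and 538 CPM at E16.5, 1353 and 1216 at P0, and 738 and 886 at W4, thus highest of these ages at P0. They rose to P0 by 1.20 ± 0.13 (adjusted p = 0.000527) and 1.29 ± 0.11 (adjusted p = 0.000132) and then fell (-0.73 ± 0.13, adjusted p = 0.00351 and -0.72 ± 0.11, adjusted p = 0.0012).

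Of 15 vascular growth factors and receptors, 4 rose and 3 fell to W4, and 6 and 4 in cluster 7 (background 10.9% and 12.6%, and 15.2% and 16.7%). Pdgfc was 14.1 and 13.1 CPM at P0 and 27.4 and 32.8 at W4 and rose by 1.09 ± 0.20 (adjusted p = 0.00437), and Pdgfa and Angpt2 rose by 0.66 ± 0.12 (adjusted p = 0.00313) and 0.51 ± 0.12 (adjusted p = 0.013). Vegfa fell in VSM from 18.2 and 17.2 CPM to 8.97 and 7.70 CPM (-1.15 ± 0.22, adjusted p = 0.00547) and was 13.04 and 15.0 CPM at P0 and 55.8 and 36.9 at W4 in Pc, with a shift toward Pc (-2.64 ± 0.28, adjusted p = 2.64e-05). Angpt2 (angiopoietin-2) was 46.3 and 55.3 CPM at P0 and 148.7 and 134.5 at W4 in Pc, and its difference shifted toward Pc (-0.78 ± 0.14, adjusted p = 0.00276), while the rise of Angpt2 in VSM was lost with either W4 library left out.

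Of 9 genes of sphingosine 1-phosphate, the lipid that draws T cells out of the thymus, 2 rose and 1 fell to W4, near the background of 10.9% and 12.6%, and 1 rose and 2 fell in cluster 7. S1pr3, a receptor of VSM, was 95.5 and 119.6 CPM at P0 and 56.2 and 56.3 at W4 (-0.997 ± 0.13, adjusted p = 0.000641). Plpp3, a phosphatase that degrades the lipid, was 125.4 and 124.3 CPM at P0 and 309 and 323 at W4 (1.28 ± 0.12, adjusted p = 8.78e-05).

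Elastic fibre genes were among those that set the clusters within VSM apart. Eln (elastin) was 944 CPM at E12.5, 2358 at E13.5, 719 and 518 at E16.5, 15421 and 2263 at P0, and 372 and 590.0 at W4 in VSM, with the first P0 library far above all others. In the P0 libraries it was 886 and 581 CPM in cluster 7 and 43931 and 36734 CPM in cluster 21. An Eln share above 1% of the UMIs of a cell was found in 116 VSM cells of the first P0 library and in 21 of the second, and over all ages every such cell but 9 was in cluster 21. By contrast 725 VSM cells had no Eln UMI, and all of them were in cluster 7. Cluster 21 was not that rich in Eln at every age. At E12.5 and E13.5, 0 of its 18 cells and 0 of its 51 cells lay above 1%, with median shares of 0.0977% and 0.263%.

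The comparison of the clusters within P0 is a description, since the clusters were drawn from these counts. Fbln5 (fibulin-5, which tethers elastin) was 26.3 and 15.4 CPM in cluster 7 and 2472 and 2194 CPM in cluster 21, in order of library. Lox (lysyl oxidase, which crosslinks elastin) was 19.4 and 24.9 CPM in cluster 7 and 485 and 358 CPM in cluster 21, and Mfap4 (a microfibril-associated protein) was 29.6 and 5.66 CPM in cluster 7 and 1259 and 348 CPM in cluster 21. All 4 elastic fibre genes named here were thus higher in cluster 21 in both libraries, from 123 cells of cluster 21 in the first and 23 in the second.

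Cnn1 (calponin, an actin-binding brake on myosin) was 95.6 and 84.8 CPM in cluster 7 and 1093 and 1311 CPM in cluster 21, and Acta2 was 8928 and 8153 CPM in cluster 7 and 14826 and 18255 CPM in cluster 21. Myh11 and Notch3 ran the other way, at 2029.8 and 2314 CPM in cluster 7 and 1054 and 1282 CPM in cluster 21 and at 504 and 502 CPM in cluster 7 and 85.5 and 141 CPM in cluster 21. Rgs5 was 5888 and 6846 CPM in cluster 7 and 857 and 319 CPM in cluster 21, and Nrip2, a nuclear receptor cofactor, was 565 and 615 CPM in cluster 7 and 11.1 and 14.5 CPM in cluster 21. Genes named here beyond the elastic fibre list and the contractile list were chosen after their values were seen. Sost (sclerostin, an inhibitor of Wnt signalling) was 2.09 and 0.53 CPM in cluster 7 and 548 and 496 CPM in cluster 21. Sfrp2 (a secreted Wnt modulator) was 6.87 and 1.24 CPM in cluster 7 and 1189 and 713 CPM in cluster 21. Ncam1 (a neural cell adhesion molecule) was 1.20 and 2.47 CPM in cluster 7 and 353 and 322 CPM in cluster 21.

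The contractile list held genes that went either way, such as Cnn1 and Nrip2. Its summed transcripts took a median of 3.51% and 5.02% of the UMIs of a cluster 21 cell at P0 and 3.14% and 3.02% of a cluster 7 cell. The order was the reverse at the earliest ages. At E12.5 the medians were 1.391% in cluster 21 and 2.175% in cluster 7, and at E13.5 they were 0.858% and 1.174%. Markers of other cells were compared likewise. The 10 striated muscle markers summed to 25.4 and 20.9 CPM in cluster 7 and 703.7 and 224.5 CPM in cluster 21 at P0, with Actc1 at 1.79 and 1.06 CPM and 513.8 and 76.0 CPM. The fibroblast markers summed to 381.4 and 539.5 CPM in cluster 7 and 666.2 and 159.3 CPM in cluster 21 at P0, and in the 4 cells of cluster 21 at W4 to 10035 CPM, against 1701 CPM in cluster 7 of that library. The part of these cells' transcripts in the comparison was not tested. The newborn set, which has no such cluster numbers, held 24 of 866 VSM cells with an Eln share above 1%, at 4, 5 and 7 cells in the WT libraries and 0, 8 and 0 in the libraries labelled Tbx1+/- Crkl+/-.

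**Figure D4:**
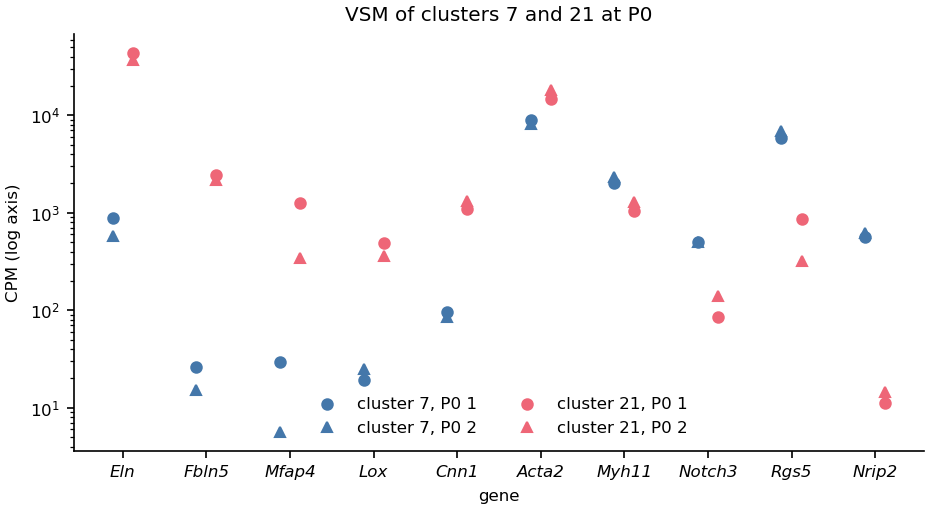
Levels of 10 genes at P0 in cluster 7 (blue) and cluster 21 (red) of VSM, as CPM on a log axis, with a circle for the first P0 library and a triangle for the second. Eln, Fbln5, Mfap4, Lox and Cnn1 are higher in cluster 21 in both libraries, and Rgs5, Nrip2 and Notch3 are higher in cluster 7.

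The age tests of some matrix genes changed when cluster 21 was left out. Of 25 elastic fibre and interstitial matrix genes, 2 rose and 4 fell to W4 with a median of -0.90, near the background of 10.9% and 12.6%. In cluster 7, 4 rose and 4 fell with a median of -0.06, again near the background of 15.2% and 16.7%. Eln gave -4.27 ± 1.24 (adjusted p = 0.11) for W4 against P0, and Lox gave -1.05 ± 0.88 (adjusted p = 0.47) in all VSM but 1.05 in cluster 7 (adjusted p = 0.000156). Fn1 (fibronectin) fell without that dependence, from 371 and 402 CPM to 169 and 212 CPM (-1.08 ± 0.12, adjusted p = 0.000242), and shifted toward VSM against Pc by 1.46 ± 0.11 (adjusted p = 1.88e-06). Fbn2 (the fetal fibrillin, -3.72 ± 0.73, adjusted p = 0.0433) and Mfap2 (a microfibril protein, -2.71 ± 0.49, adjusted p = 0.0292) fell, while Col6a1 rose by 0.54 ± 0.11 (adjusted p = 0.00651). The fall of Fbn2 was lost with any single E16.5 or P0 library left out and that of Mfap2 with either E16.5 library, and the rise of Col6a1 was lost without W4 replicate 2. The collagens are shared with fibroblasts, whose summed markers were 411 and 1994 CPM in the W4 libraries.

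Of 26 basement membrane genes and integrins, 7 rose and 2 fell to W4, beside 10.9% and 12.6% of all genes, and in cluster 7 it was 5 and 3 of 25 beside 15.2% and 16.7%. Lamb2 (laminin β2, of the mature vessel wall) was 18.3 CPM at E12.5, 24.9 at E13.5, 80.6 and 71.2 at E16.5, 148.4 and 152 at P0, and 344 and 325 at W4. Its libraries did not overlap between E16.5, P0 and W4, and it rose by 0.99 ± 0.10 (adjusted p = 0.000403) and 1.09 ± 0.10 (adjusted p = 8.25e-05). Col4a1, the common chain of type IV collagen, fell at both steps (-0.66 ± 0.11, adjusted p = 0.00671 and -0.42 ± 0.11, adjusted p = 0.0245), while Col4a5 rose by 1.31 ± 0.16 (adjusted p = 0.000778) and 0.48 ± 0.15 (adjusted p = 0.0411) and Col4a6 to P0 by 2.98 ± 0.37 (adjusted p = 0.00104). Col4a5 and Col4a6 lie side by side and form a collagen of smooth muscle basement membranes. At P0 and W4 the library levels of Col4a5 were 64.3 and 65.2 CPM at P0 and 101.1 and 87.1 at W4 in VSM and 4.995 and 4.27 CPM at P0 and 8.03 and 1.63 at W4 in Pc.

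Col18a1, whose product yields endostatin, had one of the largest shifts toward VSM from P0 to W4, 3.90 ± 0.20 (adjusted p = 8.95e-09), at 54.2 and 52.4 CPM at P0 and 82.7 and 121.6 at W4 in VSM and 63.0 and 55.9 CPM at P0 and 6.34 and 10.3 at W4 in Pc. At W4 the labels did not overlap. Itga1 (the α1 integrin, a collagen receptor) rose in VSM by 0.78 ± 0.11 (adjusted p = 0.00109). The calls of Col4a1 and Col4a5 to W4 were lost with any single E16.5 or W4 library left out, and that of Col4a1 to P0 with either E16.5 library.

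Cytokines and chemokines that act on thymocytes and their progenitors were tested as 30 genes, of which 8 rose and 3 fell to W4 (background 10.9% and 12.6%). In cluster 7, 11 rose and 6 fell of 29 (background 15.2% and 16.7%). Kitl (stem cell factor, which early progenitors need) was 6.65 CPM at E12.5, 21.2 at E13.5, 114 and 96.5 at E16.5, 156.5 and 269.6 at P0, and 339 and 306 at W4 in VSM. Pc held 5.07 CPM at E12.5, 9.87 at E13.5, 14.6 and 14.5 at E16.5, 22.2 and 18.2 at P0, and 93.8 and 104 at W4. VSM was higher than Pc in all 8 libraries, and the tests gave 1.02 ± 0.26 (adjusted p = 0.0749) to P0 and 0.54 ± 0.25 (adjusted p = 0.191) to W4. Cluster 7 passed at both (1.26, adjusted p = 7.19e-07, and 0.31, adjusted p = 0.0433). Cxcl12, the ligand of CXCR4 and ACKR3, was 241 and 252 CPM at E16.5, 217 and 213 at P0, and 221 and 195 at W4 but 83.7 and 80.2 CPM at E16.5, 215 and 225 at P0, and 859.9 and 773 at W4 in Pc, with a shift toward Pc (-1.81 ± 0.10, adjusted p = 3.55e-08).

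Il34, a ligand of the CSF1 receptor, rose in VSM by 1.34 ± 0.29 (adjusted p = 0.0261), and Il15, a cytokine of lymphocyte survival, by 1.22 ± 0.29 (adjusted p = 0.0141). Both calls were lost with either W4 library left out. Ccl19, a ligand of CCR7, was 6.92 and 3.201 CPM at P0 and 39.2 and 23.1 at W4 (2.56 ± 0.41, adjusted p = 0.00272). Ccl25, a ligand of CCR9, was 18.6 and 13.99 CPM at P0 and 55.3 and 32.4 at W4 (1.36 ± 0.26, adjusted p = 0.00656, lost without W4 replicate 1). The 7 epithelial markers summed to 21.4 and 5.39 CPM at P0 and 61.4 and 30.4 CPM at W4 in the same VSM sums and to 24.1 and 12.2 CPM and 77.75 and 68.4 CPM in Pc, and 1 of 3 tested rose in VSM (2 in cluster 7). Ccl25 is also a product of thymic epithelium, and the part of epithelial transcripts in its level was not tested. Cxcl10 was 0 CPM at E12.5, 1.46 at E13.5, 70.3 and 72.8 at E16.5, 212 and 229 at P0, and 5.67 and 3.24 at W4 in VSM. This chemokine of the interferon response rose to P0 by 1.63 ± 0.12 (adjusted p = 6.84e-05) and fell to W4 (-5.70 ± 0.19, adjusted p = 2.86e-07), and its W4 libraries lay below those of E16.5. Cxcl1, which draws neutrophils, was 5.82 CPM at E12.5, 16.8 at E13.5, 178 and 191.7 at E16.5, 571 and 525 at P0, and 81.2 and 132.1 at W4, with 1.57 ± 0.20 (adjusted p = 0.00526) to P0, lost with any single E16.5 or P0 library left out, and a fall to W4 (-2.42 ± 0.21, adjusted p = 0.000491). In bulk Ly51+gp38- cells Cxcl10 gave -0.43 ± 0.78 (adjusted p = 0.825) from P0 to W4.

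Cell cycle genes fell in cells labelled VSM between E16.5 and birth. Proliferating stroma has a label of its own, Pr, and the study places some of its cells on paths that lead to Pc and VSM. Cycling smooth muscle may therefore sit under Pr, so that the levels below hold for cells labelled VSM alone. Whether the part under Pr differed with age was not tested. Of 22 cell cycle genes, 18 fell and 0 rose from E16.5 to P0 with a median of -2.79 (background 5.06% and 4.33%), and 8 fell and 0 rose to W4 with a median of -0.96 (background 12.6% and 10.9%). In cluster 7, 17 fell to P0 and 9 to W4, and 0 rose at either step. Mki67, a protein of cycling nuclei, was 59.0 CPM at E12.5, 62.2 at E13.5, 99.9 and 77.3 at E16.5, 7.91 and 5.90 at P0, and 3.31 and 2.43 at W4 in VSM. In Pc it was 8.44 CPM at E12.5, 26.9 at E13.5, 17.6 and 17.7 at E16.5, 8.32 and 7.11 at P0, and 5.92 and 3.25 at W4. It fell in VSM (-3.68 ± 0.21, adjusted p = 1.8e-05), and the libraries of E16.5 and P0 were far apart. Aurkb (aurora kinase B) (-3.92 ± 0.39, adjusted p = 0.000328) and Cenpf (a centromere protein, -3.63 ± 0.20, adjusted p = 1.64e-05) also fell, and the change of Aurkb in VSM differed from that in Pc (-2.79 ± 0.48, adjusted p = 0.00207). Kif15, Nuf2, Hmmr, Kif22, Racgap1 and Sgo2a, which act in the spindle and in division, completed the 10 largest falls among genes of at least 20 CPM together with Cpa1, which encodes a carboxypeptidase of the exocrine pancreas. Cpa1 was at most 1.85 CPM in VSM after birth (-4.04 ± 0.42, adjusted p = 0.000635). The Sgo2a call was lost without E16.5 replicate 1. Cdkn1a (the cell cycle inhibitor p21) rose to P0 by 2.22 ± 0.19 (adjusted p = 0.000171).

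Imprinted and fetal growth genes fell after birth. Of 16 tested, 14 fell and 0 rose from P0 to W4 with a median of -2.17 (12.6% and 10.9% of all genes), and the counts were the same in cluster 7. H19 (an imprinted RNA) was 2331 CPM at E12.5, 2375 at E13.5, 332 and 325 at E16.5, 149.2 and 222 at P0, and 3.78 and 10.5 at W4. Mest was 198 and 176 CPM at E16.5, 59.1 and 81.4 at P0, and 0.945 and 2.84 at W4, and Plagl1 (an imprinted zinc finger factor) 40.2 and 45.2 CPM at E16.5, 30.5 and 29.99 at P0, and 0.472 and 2.03 at W4. All 3 fell (-4.71 ± 0.42, adjusted p = 0.00288, -5.20 ± 0.33, adjusted p = 4.69e-05 and -4.55 ± 0.34, adjusted p = 2.64e-05), with no overlap between P0 and W4. Dlk1 was 2457 and 2457 CPM at E16.5, 693 and 1203 at P0, and 56.2 and 95.6 at W4 (-3.69 ± 0.43, adjusted p = 0.0111). Meg3, a noncoding RNA of the same imprinted region, was 4073 and 4273 CPM at E16.5, 2459.6 and 3717 at P0, and 635 and 646 at W4 (-2.33 ± 0.19, adjusted p = 0.000753). Igf2bp1, an RNA-binding protein of fetal tissue, was 28.3 and 24.2 CPM at E16.5, 5.74 and 6.07 at P0, and 0 and 0.405 at W4 (-4.59 ± 0.57, adjusted p = 0.000465).

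Other genes with the largest changes to W4 among those of at least 20 CPM are named by rule. Galnt15 (a glycosyltransferase), Hr (the hairless corepressor), Lncpint and AW112010 (long noncoding RNAs), Ildr2, S100a4 and Ltc4s (leukotriene C4 synthase) rose, beside Sncg and Pln. S100a4 (a calcium-binding protein of mesenchyme) was 15.6 and 8.76 CPM at P0 and 147.8 and 216 at W4 (3.85 ± 0.31, adjusted p = 0.000335). Of the falls, Reln (reelin, a secreted glycoprotein) was 20.97 and 41.3 CPM at P0 and had no UMI in either W4 library, which is at least 22-fold lower when set against 3 UMIs per library. Milr1 (an inhibitory receptor), Cxcl2 (a neutrophil chemokine), Fabp7 (a fatty acid binding protein) and Cdo1 (cysteine dioxygenase) fell, with log2 changes of -6.51, -5.47, -4.76 and -4.59 (adjusted p = 0.000654, 0.000282, 0.00196 and 0.000684). Leaving out P0 replicate 1 removed the calls of AW112010 and Ltc4s, and leaving out P0 replicate 2 that of Ltc4s.

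The same rule from E16.5 to P0 named Lgr6, Nr4a2, Nr4a3, Atcayos, Fabp3, Thsd4, Nr4a1, Klf2, Angptl4 and Cdkn1a among the rises. Nr4a1, Nr4a2 and Nr4a3 among them are nuclear receptors of the immediate early response. Nr4a1 was 72.97 and 64.3 CPM at E16.5, 528 and 393 at P0, and 75.1 and 74.6 at W4, Nr4a2 8.99 and 6.38 CPM at E16.5, 99.3 and 62.7 at P0, and 12.3 and 6.48 at W4, and Nr4a3 2.64 and 2.92 CPM at E16.5, 23.5 and 18.5 at P0, and 6.14 and 2.84 at W4. They were thus high at P0 alone of these ages. Thsd4 (a protein of fibrillin microfibrils) was 4.23 and 4.79 CPM at E16.5, 42.3 and 22.2 at P0, and 56.7 and 46.6 at W4 (2.83 ± 0.38, adjusted p = 0.00466). Lgr6 (a receptor for R-spondins) was 0.793 and 1.33 CPM at E16.5, 30.9 and 9.60 at P0, and 0.472 and 1.22 at W4 (4.21 ± 0.78, adjusted p = 0.0233). Fabp3 (a fatty acid binding protein of muscle) was 4.23 and 4.25 CPM at E16.5, 43.5 and 17.7 at P0, and 3.31 and 6.08 at W4 (2.84 ± 0.54, adjusted p = 0.0283). Angptl4 (a secreted inhibitor of lipoprotein lipase) was 9.52 and 7.71 CPM at E16.5, 46.9 and 59.5 at P0, and 10.9 and 16.6 at W4 (2.63 ± 0.22, adjusted p = 0.000134). The calls of Lgr6, Fabp3 and Thsd4 were lost with either E16.5 library left out, and those of Lgr6 and Fabp3 also with either W4 library. Lgr6 was also lost in cluster 7 (adjusted p = 0.0762).

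Antigen presentation and the interferon response were tested as 1 list. Of 27 tested, 17 rose and 3 fell from P0 to W4 with a median of 0.81, beside 10.9% and 12.6% of all genes. In cluster 7, 13 rose and 4 fell with a median of 0.53, beside 15.2% and 16.7%. H2-K1 and H2-D1, the classical MHC class I heavy chains, are counted apart here. H2-K1 was 0 CPM at E12.5, 0 at E13.5, 50.2 and 46.5 at E16.5, 126.8 and 126 at P0, and 524 and 639 at W4, and H2-D1 0 CPM at E12.5, 3.66 at E13.5, 98.1 and 94.6 at E16.5, 206 and 227 at P0, and 700.0 and 863 at W4. Each age from E16.5 on lay above the one before without overlap, with 1.39 ± 0.12 (adjusted p = 0.000193) and 2.14 ± 0.12 (adjusted p = 4.33e-06) for H2-K1 and 1.17 ± 0.12 (adjusted p = 0.000374) and 1.79 ± 0.12 (adjusted p = 1.43e-05) for H2-D1. B2m (their light chain) rose to W4 by 0.82 ± 0.10 (adjusted p = 0.000339) and H2-T23 by 2.28 ± 0.20 (adjusted p = 6.01e-05).

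H2-K1 was 99.1 and 70.1 CPM at P0 and 725 and 789.9 at W4 in Pc, and the difference shifted toward Pc (-0.86 ± 0.14, adjusted p = 0.0016). The heavy chains are close in sequence, so that reads may be divided between them. Irf1, an interferon-induced factor, fell from 308 and 365 CPM to 41.1 and 46.6 CPM (-3.00 ± 0.13, adjusted p = 9.43e-07). Summed haematopoietic markers were 76.6 and 42.1 CPM at P0 and 242 and 152 CPM at W4 in the same sums. Summed endothelial markers were 291 and 429 CPM at P0 and 440 and 499 CPM at W4, and 3 of 10 tested rose. At W4 the MHC and interferon list summed to 16738 and 17637 CPM in EnC and to 5499 and 6080 CPM in VSM. The part of other cells' transcripts was not tested.

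Immediate early genes, which respond within minutes and also to tissue digestion, were highest in VSM at P0. The list of 21 immediate early and heat shock genes summed to 11421 and 11664 CPM at E16.5, 28454 and 32083 CPM at P0, and 15476 and 15687 CPM at W4 in VSM, and to 23580 and 22831, 22630 and 22168, and 9187 and 8272 CPM in Pc. Of these 21 genes, 16 rose and 0 fell from E16.5 to P0 (background 4.33% and 5.06%), and 3 rose and 16 fell to W4 (background 10.9% and 12.6%). In cluster 7 the counts were 17 and 1 to P0 and 4 and 16 to W4. Fos was 712 CPM at E12.5, 938 at E13.5, 1682 and 1620.4 at E16.5, 7094 and 7675 at P0, and 2187 and 2306 at W4 in VSM. In Pc it was 543 CPM at E12.5, 806 at E13.5, 4435 and 4207 at E16.5, 4832 and 4353 at P0, and 1208 and 1034 at W4. It rose in VSM by 2.17 ± 0.07 (adjusted p = 7.85e-07), shifted toward VSM by 2.28 ± 0.10 (adjusted p = 6.08e-08) and then fell (-1.78 ± 0.07, adjusted p = 8.02e-07). Egr1, Atf3 and Nr4a1 rose to P0 by 2.10, 2.16 and 2.75 (adjusted p = 1.2e-05, 4.48e-05 and 2.9e-05).

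The 3 genes of the list that rose to W4 in all VSM were heat shock genes. Hspa1a was 191.2 CPM at E12.5, 238 at E13.5, 312 and 419.5 at E16.5, 501 and 315 at P0, and 2341 and 2168 at W4 (2.40 ± 0.29, adjusted p = 0.00681). Hspb1 (a small chaperone of muscle) was 452 CPM at E12.5, 278 at E13.5, 386 and 342 at E16.5, 461 and 352 at P0, and 2256 and 2418 at W4 (2.46 ± 0.14, adjusted p = 1.83e-05), and Hspa1b rose by 3.52 ± 0.28 (adjusted p = 0.000924). Hspa1a and Hspa1b are near-identical copies. Each step in age that crosses P0 therefore coincided with a change of this list in VSM, and its part in the other results was not tested.

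**Figure D5:**
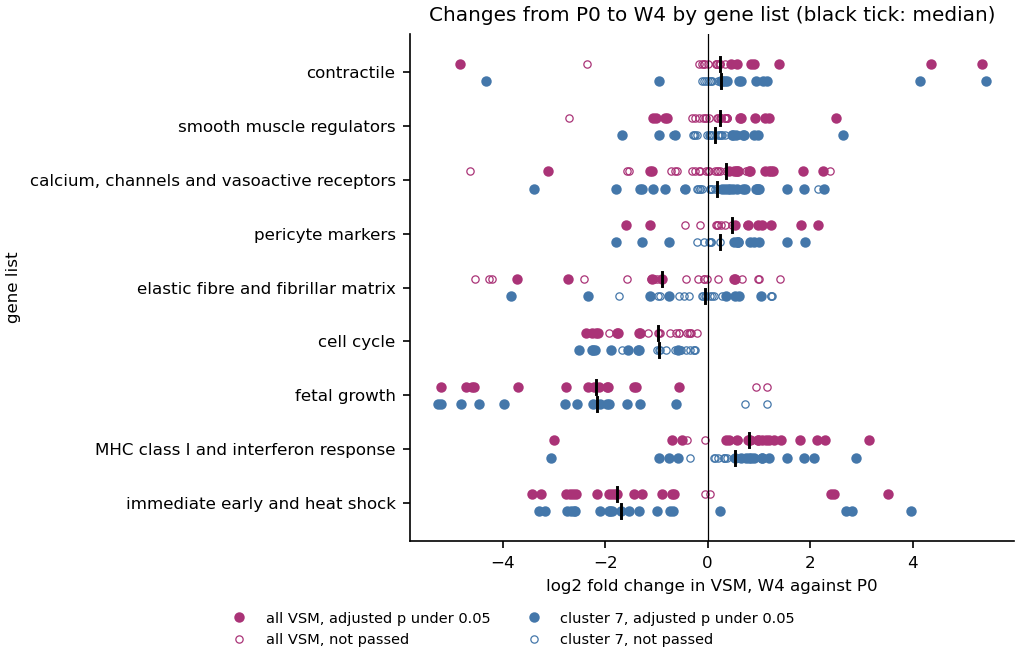
Log2 change from P0 to W4 in VSM for the genes of 9 lists, in all VSM (purple) and in cluster 7 (blue), filled where the adjusted p was under 0.05 and open otherwise, with a black tick at the median. The fetal growth list lies lowest with a median of -2.17, the immediate early list has a median of -1.78, and the elastic fibre list moves from a median of -0.90 to -0.06 in cluster 7.

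Over all genes, 2957 (23.5%) of 12575 changed in VSM from P0 to W4 and 1181 (9.39%) from E16.5 to P0, while 6266 (49.8%) changed over the 5 ages. In cluster 7 the counts were 3913 (31.9%), 2201 (17.9%) and 7075 (57.6%) of 12283. Of the calls of all VSM from P0 to W4, 2835 were also calls in cluster 7, 95.9% of the former and 72.5% of the latter, and all had the same direction. The count from E16.5 to P0 was 208 and 216 without one or the other E16.5 library, and 1033 and 1022 in cluster 7. Such a fit leaves 1 library at that age, which is assumed to vary like those of the other ages. Without one or the other W4 library the count from P0 to W4 was 1413 and 1680.

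The newborn libraries asked whether VSM differ in mice with 1 altered copy each of Tbx1 and Crkl. Tbx1 had no UMI in VSM of any of the 6 libraries. Over all cells it had 13, 6 and 19 UMIs in WT (1.79, 0.441 and 0.605 CPM). In the libraries labelled Tbx1+/- Crkl+/- it had 0, 0 and 8 UMIs (0, 0 and 0.872 CPM), so that the groups overlapped. Crkl over all cells was 22.99, 25.1 and 18.4 CPM in WT and 24.1, 23.6 and 26.9 CPM in the others (22.2 ± 3.44 and 24.9 ± 1.78, SD, n = 3), so that the groups overlapped. Where the alleles lie relative to the counted 3′ reads is not given in the sources used here, and Crkl therefore checks nothing. Genotype names below follow the labels.

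VSM were 8.14%, 9.13% and 7.76% of NETS cells in WT and 5.07%, 5.44% and 7.75% in the libraries labelled Tbx1+/- Crkl+/-, from 43 to 249 cells per library. The groups touched at their ends, and the difference of -0.43 ± 0.18 on the log2 scale did not pass (SE, edgeR, adjusted p = 0.362 over the labels). Leaving out the third library of the Tbx1+/- Crkl+/- group gave -0.65 (adjusted p = 0.0134). The study reported a lower relative number of VSM in the mutant mice, from Fisher's exact test on the frequencies of cell types.

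Gene levels in VSM differed at 2 genes of 6489 tested (0.0308%), both higher in the libraries labelled Tbx1+/- Crkl+/-, with 316 genes at an unadjusted p under 0.05 and no call with DESeq2. Fkbp5, a chaperone induced by glucocorticoids, was 40.1, 17.9 and 23.6 CPM in WT and 52.3, 90.5 and 78.9 CPM in the others (1.60 ± 0.33, adjusted p = 0.0295). Alcam (a cell adhesion molecule) was 23.6, 32.5 and 20.7 CPM in WT and 58.8, 58.7 and 97.96 CPM in the others (1.59 ± 0.33, adjusted p = 0.0295). Neither gene overlapped between the groups. The Fkbp5 call was lost without WT replicate 2, WT replicate 3 or Tbx1+/- Crkl+/- replicate 2, and the Alcam call without replicate 3 of either group.

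None of the 20 contractile genes tested passed, and 18 of them had a negative log2 change, with a median of -0.29 beside 0.01 over all genes. Their sum was 19503, 28540 and 26325 CPM in WT and 19084, 20797 and 17137 CPM in the libraries labelled Tbx1+/- Crkl+/-, so that the groups overlapped. In the same sums the 13 haematopoietic markers came to 341.6, 610.0 and 512.5 CPM in WT and 738.8, 1152 and 1011 CPM in the others, without overlap. Most of this was Cd74, which antigen-presenting and epithelial cells share, while Cd4 and Rag1 had no UMI. The 7 epithelial markers came to 348.7, 590.5 and 475.4 CPM in WT and 562.2, 1074 and 869.7 CPM in the others, and the part of either list in these results was not tested. Acta2 was 3068, 5796 and 5545 CPM in WT and 3092, 3834 and 2012 CPM in the others (-0.68 ± 0.26, adjusted p = 0.814), and Myh11 gave -0.13 ± 0.24 (adjusted p = 0.997). The study observed fewer transcripts of contractile elements in VSM of these mutant mice, with Myl6 and Tpm2 as examples. Neither gene was among those called here between the genotypes. The VSM of this set were shallower, at a median of 2555.5 to 5157 UMIs per cell, and the 43 to 249 cells per library limit what could be detected.

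Bulk RNA of sorted Ly51+gp38- cells gave a view of the mural compartment with 6 libraries per age. This gate holds Pc and VSM together, so that more cells of a type and more RNA per cell cannot be told apart. Of 11949 genes tested, 774 (6.48%) rose and 655 (5.48%) fell from P0 to 4 weeks (12% in all). The titles carry 1 of 2 prefixes of unstated meaning, with 3 libraries of each at each age, and with the prefix as a term the calls numbered 1483. Of the 22 contractile genes, 20 rose and 1 fell, with a median of 1.59 beside -0.05 over all genes.

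Acta2 (ENSMUSG00000035783) had a lowest, median and highest level of 830.2, 1206 and 1837 CPM at P0 and 3736, 4484 and 5195 CPM at 4 weeks, without overlap (1.91 ± 0.18, adjusted p = 1.29e-05). Myh11 was 263, 313 and 392 CPM and 619, 949 and 1311 CPM (1.72 ± 0.18, adjusted p = 3.83e-05), again without overlap. In VSM cells of the single-cell data neither gene passed between these ages, as given above.

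Pln was 0, 0 and 1.98 CPM at P0 and 76.2, 133 and 166 CPM at 4 weeks (8.21 ± 0.90, adjusted p = 4.8e-05), and Sncg was 0.0725, 0.559 and 2.20 CPM and 114.6, 138 and 176 CPM (7.65 ± 0.61, adjusted p = 4.37e-06). Both genes were thus near 0 at P0 and present in every library at 4 weeks, whereas VSM of the single-cell data held UMIs of both at P0. Rgs5 was 26789, 32355 and 37279 CPM and 81871, 92808 and 106379.8 CPM (1.68 ± 0.11, adjusted p = 1.04e-06), without overlap. Tpm2 and Myl6 gave 1.43 ± 0.23 (adjusted p = 0.00106) and 1.66 ± 0.15 (adjusted p = 8.14e-06), and Pcp4l1 gave 3.69 ± 0.27 (adjusted p = 2.16e-06). Of the fetal growth genes 12 fell and 0 rose, and of the 26 MHC and interferon genes tested 13 rose and 0 fell, beside 5.48% of all genes lower and 6.48% higher. Markers of some other cells rose in the same libraries. The summed 13 haematopoietic markers had a lowest, median and highest level of 33.2, 72.5 and 129.0 CPM at P0 and 380.8, 660.7 and 2126 CPM at 4 weeks, and 3 of 10 tested rose. The summed 7 epithelial markers were 7.43, 95.8 and 203.3 CPM and 280.4, 540.2 and 1334 CPM, and 3 of 4 tested rose. Ptcra and Tyrobp of the first list and Epcam of the second were at 0 in every P0 library. The summed 7 erythroid markers were 0.0631, 0.694 and 1.76 CPM and 3.47, 219 and 536 CPM, and 0 of them passed the filter on low counts. No sum of the haematopoietic, epithelial and erythroid lists overlapped between the ages. The other marker lists did overlap. Their median sums at P0 and 4 weeks were 572.4 and 536.5 CPM for endothelial, 1567.6 and 1185.9 CPM for fibroblast and 0.952 and 0 CPM for mesothelial markers. They were 20.79 and 65.65 CPM for neural crest and glial and 5.549 and 7.845 CPM for striated muscle markers. The part of any of these lists in the bulk results was not tested.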

How the data were processed

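The authors deposited 2 tables of UMI counts per gene and cell (10x Chromium 3′ chemistry, Cell Ranger 3.1.0 per the submitters' notes, which list the builds mm10 and GRCh38 without their role) with the label and cluster of each cell, and HTSeq read counts per gene for the bulk libraries (STAR 2.5.3a). Per the study, they had kept cells of over 1000 genes and under 5% mitochondrial UMIs, removed doublets with DoubletFinder and contaminating clusters, and integrated libraries before clustering. No cell was removed here and no doublet caller was run. The lowest VSM cell had 1007 genes in the age series but 900 in the newborn set, below that limit. Columns of the authors' own comparisons were not used.

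UMIs were summed per label and library, with groups taken from the labels, and tested with edgeR 4.0.16 (R 4.3.3; filterByExpr, TMM, quasi-likelihood test, Benjamini-Hochberg adjustment, threshold 0.05), one fit over the 5 ages. VSM and Pc were compared over age by an interaction with the library as a block. Cell numbers were tested likewise over the 19 labels with the log of all NETS cells as offset. Members and lists were chosen with earlier results of these data known. Named genes were the 10 largest changes each way with an adjusted p under 0.05 and at least 20 CPM in the higher group, without names of the Gm or Rik kind, and the members of the lists in order of role, and some of these are not reported here. Of the bulk entries, 10.44% to 14.44% of the counts fell in no gene and were left out, and 37607 of 39179 gene IDs had a symbol. Bulk libraries held 6793831 to 15852166 counts. The scripts were tested on simulated counts. Alternatives were DESeq2 1.42.0, RLE scaling, no filter, only the ages from E16.5, thinning to 2000 UMIs per cell, a replicate block, leaving out each library, and cluster 7 alone. Deviations of same-numbered libraries from their age means had correlations of 0.0326, 0.0421 and -0.166 between ages. With 2 libraries per age each pair of ages gives 1 such value, which cannot tell whether the numbers pair the libraries.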

Additional observations from a re-analysis of the deposited data

Results flagged for a closer look

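Changes of the VSM-Pc difference were flagged because the effect of age differed between the labels by the interaction test. From P0 to W4 this held for 651 genes. Among the largest shifts toward VSM, on the log2 scale, were Susd5 (7.16), Myocd (4.75), Atcayos (4.13), Col18a1 (3.90), Fndc1 (3.49), Col12a1 (3.46), Pdgfc (3.44), Ntng1 (3.07) and Galnt15 (2.999). The largest toward Pc were Fgl1 (-4.15), Klk8 (-3.82), Bdnf (-3.59), Aqp1 (-3.07), Cxcl13 (-3.02), Prkg2 (-2.86), Sulf2 (-2.82), Plxdc1 (-2.71), Vegfa (-2.64) and Ggt5 (-2.60). Of these, Bdnf, the neurotrophin, was 48.7 and 15.5 CPM at P0 and 0.472 and 2.03 at W4 in VSM and 18.0 and 12.2 CPM at P0 and 11.8 and 6.51 at W4 in Pc, and Aqp1, a water channel, was 40.2 and 31.7 CPM at P0 and 12.3 and 23.1 at W4 in VSM and 3.61 and 4.27 CPM at P0 and 16.48 and 20.6 at W4 in Pc. Calls lost when a single library was left out were Atcayos, Myocd, Pdgfc, Bdnf, Cxcl13, Fgl1, Galnt15, Sulf2 and Susd5 without W4 replicate 1, Fndc1, Klk8, Bdnf and Cxcl13 without W4 replicate 2, Sulf2 and Susd5 without P0 replicate 1, Cxcl13, Fgl1 and Galnt15 without P0 replicate 2, and Bdnf and Fgl1 with either E16.5 library left out.

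From E16.5 to P0 the difference changed in 702 genes. Toward VSM these were led by Sost (9.65), Gxylt2 (4.77), Ctnnd2 (4.23), Prdm6 (3.63), Ptgis (3.62), Ncam1 (3.32), Klf2 (3.14), Atf3 (2.92), Igfbp2 (2.70) and Ntf3 (2.60), and toward Pc by Col9a1 (-6.94), Acan (-4.89), Lrrc15 (-3.62), Fndc1 (-3.14), Aurkb (-2.79), Kif15 (-2.45), Hist1h2ae (-2.41), Kif22 (-2.36), Cpa1 (-2.33) and Hmmr (-2.31). Sost and Ncam1 were also far higher in cluster 21 than in cluster 7 at P0. Calls lost without E16.5 replicate 1 were Acan, Col9a1, Ncam1, Ntf3, Ctnnd2, Fndc1, Gxylt2, Hmmr, Kif15, Kif22 and Prdm6, without E16.5 replicate 2 the first 9 of these and Sost, without P0 replicate 1 Fndc1, Gxylt2, Hmmr and Kif15, and without P0 replicate 2 Ctnnd2, Hmmr, Kif15 and Kif22. In cluster 7 alone the calls of Ntng1, Cxcl13 and Sulf2 from P0 to W4 and of Gxylt2, Prdm6, Ptgis, Ncam1, Igfbp2 and Fndc1 from E16.5 to P0 were lost, and Sost did not pass the filter on low counts there. No library stood apart by Dixon's test in 18 groups of 6 bulk libraries, which were 9 genes at 2 ages.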

How the results depend on the processing

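Counts of calls moved by over 1.5 times under the settings named here. From P0 to W4 the 2957 calls became 1574 with thinned cells, 1204 with DESeq2, and 1413 to 3934 with a library left out. From E16.5 to P0 the 1181 became 559 thinned, 493 with DESeq2, 2201 in cluster 7, 2202 in cluster 7 with the ages from E16.5 alone, 208 to 2190 with a library left out of all VSM and up to 2399 in cluster 7 (2318 and 2324 without a W4 library). The 6266 calls over all ages became 3103 thinned and 3716 with DESeq2. The 651 interactions from P0 to W4 became 1067 unfiltered, 278 without the library block, 1044 in cluster 7 and 363 to 861 with a library left out, and the 702 from E16.5 to P0 became 1170, 190 and, with a library left out, 142 to 1153. The 2 genes of the genotype became 8 unfiltered, 0 with DESeq2 and 0 to 15 with a library left out, and the 1429 of bulk 2490 with DESeq2.

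The share of VSM moved from 0.10 to -0.0369 for W4 against P0 with mural cells as denominator (-0.0274 to 0.217 with a library left out, 0.321 in cluster 7), and from 1.03 to 0.878 for P0 against E16.5 (0.934 to 1.11). Over all ages its change was no longer called with that denominator (adjusted p = 0.106, against 2.51e-05). By genotype it was -0.651 to -0.337 with a library left out. With the replicate number as a block the counts were 2822, 1190 and 5595 for age, 314 and 260 for the interactions and 0 for the genotype. Whether the numbers pair the libraries is not known, and the crossed pairing of P0 and W4 gave 3448 for W4 against P0.

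These values turned sign. From P0 to W4 Acta2 was 0.0103 in cluster 7 and 0.0116 there with 3 ages, -0.346 to 0.0239 with a library left out of all VSM, and -0.104 to 0.115 in cluster 7 (0.0101, 0.0104 and 0.085 among them). Myh11 was -0.0134 to 0.371 and in cluster 7 -0.045 to 0.125. Tpm1 was 0.0193 with RLE, 0.00114 with 3 ages, 0.017 with DESeq2, -0.025 to 0.0271 with a library left out (0.00208 among them) and -0.211 to 0.0103 in cluster 7. Tpm2 was -0.276 to 0.0714, and -0.152 to 0.109 in cluster 7 (0.0616 among them). Lox was 1.05 in cluster 7 and 1.05 there with 3 ages, -1.76 to 0.39 with a library left out and 0.907 to 1.25 in cluster 7 (0.921 and 1.15 without a W4 library). The interactions of Cxcl13 (0.494), Ncam1 (-1.28) and Igfbp2 (-0.458) turned in cluster 7. Of 4922 values of named genes under alternatives, 4435 kept direction and side of the threshold, 330 fell below it and 32 turned sign. Causes were not tested. With 1 or 2 libraries per age, small changes of genes near the floor of 3 UMIs per library could not be detected.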
